A study of Mus musculus with 8 samples.

Results

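The core circadian clock genes are the transcription factors and repressors whose feedback on each other keeps daily time inside a cell. They were chosen by name: the 3 genes of the positive arm, Arntl, Clock and Npas2, and 7 repressors, Per1, Per2, Per3, Cry1, Cry2, Nr1d1 and Nr1d2. All 10 had a row among the 51826 genes of the deposited count table, matched by their Ensembl identifier, and all 10 passed the filter on low counts that left 16623 genes for testing. RNA was sequenced from cardiomyocytes of mouse hearts on the C57BL/6 strain. The groups were LncSync-/- (KO) adults, wild-type (WT) adults, KO embryos at e13.5 (the stage in days after conception) and WT embryos at e13.5, with 2 libraries each. LncSync is a long noncoding RNA, and the KO mice carry 2 null copies of its gene. How the null allele was made, at which hour the hearts were taken and whether replicates are different mice is not given in the sources used here. The p-values therefore measure the spread between these libraries, which may be technical.

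In the mouse clock, ARNTL (also called BMAL1) pairs with CLOCK or with the related NPAS2 and binds E-box sequences in promoters. Among the genes it switches on are the Per and Cry genes, whose proteins return to the nucleus and block the pair, and Nr1d1 and Nr1d2, which encode the nuclear receptors REV-ERB alpha and REV-ERB beta. The REV-ERB proteins bind ROR elements and repress Arntl, so in tissues with a running clock the mRNA of Arntl and that of its repressors peak at different times of day. Cardiomyocytes have such a clock, and it is known for shaping fuel use and ion channel expression over the day.

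Counts totalled 16495084 to 20395600 per library, and levels are given as CPM, counts scaled to an equal library total after TMM correction for composition. Per library, a floor of 3 counts came to 0.103 to 0.207 CPM (counting error alone). Cardiomyocyte transcripts were abundant in every library, with Actc1, the cardiac alpha actin gene, at 10373 to 12029 CPM in adults and 5869 to 18963 CPM at e13.5. Markers of other cell types were present too. Haemoglobin RNA made up 15.5% and 3.19% of counts in KO embryos and 4.65% and 2.89% in WT embryos, and the highest adult share was 0.0136%. The e13.5 libraries numbered 2 carried more RNA of 9 fibroblast markers than those numbered 1, with 3665 against 421 CPM in KO and 3713 against 896 CPM in WT. Across genes, the e13.5 libraries of like number correlated more closely (r = 0.960 and 0.954 in log2 CPM) than those of like genotype (r = 0.918 in KO and 0.913 in WT). LncSync is under that name neither in the count table nor in the annotation, so its loss was not checked.

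RefSeq promoter windows, 250 bases before to 50 bases after a transcription start in GRCm38.p6, were found for 9 of the 10 genes, with 13 windows in all. They were searched on both strands for 3 clock motifs that do not overlap each other: the E-box CACGTG, the D-box TTATGTAA or TTACGTAA, and the ROR element core TAGGTCA. The 4 windows with a match are shown because they hold the letters searched for, with the match in capitals. All are written 5′ to 3′ on the strand of the gene, and positions are counted from the transcription start as +1.
Arntl, chr7:113207261-113207560, plus strand: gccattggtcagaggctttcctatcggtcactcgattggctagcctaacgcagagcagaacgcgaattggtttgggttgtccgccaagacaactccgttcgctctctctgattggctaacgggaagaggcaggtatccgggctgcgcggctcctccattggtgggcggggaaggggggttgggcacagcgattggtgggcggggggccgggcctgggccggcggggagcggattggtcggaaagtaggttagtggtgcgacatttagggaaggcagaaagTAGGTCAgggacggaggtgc
Per1, chr11:69098699-69098998, plus strand: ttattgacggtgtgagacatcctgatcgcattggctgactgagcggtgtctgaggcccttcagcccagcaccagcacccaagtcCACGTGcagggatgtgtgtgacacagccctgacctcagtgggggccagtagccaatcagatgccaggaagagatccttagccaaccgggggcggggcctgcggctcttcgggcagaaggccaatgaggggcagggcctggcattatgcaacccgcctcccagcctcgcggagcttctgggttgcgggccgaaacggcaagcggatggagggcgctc
Per3, chr4:151044616-151044915, minus strand: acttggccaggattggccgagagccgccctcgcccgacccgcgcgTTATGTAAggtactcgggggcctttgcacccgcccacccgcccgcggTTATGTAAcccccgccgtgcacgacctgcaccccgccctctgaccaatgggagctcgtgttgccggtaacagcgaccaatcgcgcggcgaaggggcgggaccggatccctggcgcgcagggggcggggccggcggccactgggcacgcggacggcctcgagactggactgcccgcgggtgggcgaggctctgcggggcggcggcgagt
Cry1, chr10:85185005-85185304, minus strand: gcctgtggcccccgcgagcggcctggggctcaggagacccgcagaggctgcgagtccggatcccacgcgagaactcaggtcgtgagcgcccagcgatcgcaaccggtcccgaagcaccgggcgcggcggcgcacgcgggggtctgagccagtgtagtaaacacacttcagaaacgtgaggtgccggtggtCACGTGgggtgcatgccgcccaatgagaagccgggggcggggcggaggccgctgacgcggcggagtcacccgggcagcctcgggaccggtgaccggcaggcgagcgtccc
The second of 2 Arntl windows held a ROR element core at position 31, downstream of the start. The Per1 window held an E-box at position -166 and the Cry1 window an E-box at position -60. Per3 had 2 D-boxes, at -205 and -158. Among all 32851 windows of the RefSeq table, 7.15% held the E-box, 1.06% a D-box and 2.61% the ROR element core. These are letters in a window, and binding was not measured.

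In adult hearts the clock genes stood apart by genotype in a mixed pattern: Arntl and its repressor Nr1d1 were higher in KO, whereas Per1, Per2, Per3, Cry1, Cry2 and Nr1d2 were lower, with the libraries of the groups not overlapping. None of these differences passed the test over all genes. Arntl, which encodes the partner of CLOCK, had 5.34 and 14.9 CPM in the KO adult libraries, against 0.699 and 1.31 CPM in the WT adult libraries (ENSMUSG00000055116, GRCm38 chromosome 7, 113207465 to 113314126). Both KO libraries were thus above both WT libraries, although the KO libraries themselves differed. The raw counts were 81 and 225 in KO and 12 and 19 in WT. The difference came to a log2 fold change of 3.33 ± 0.69 (SE), a 10.1-fold higher level, and its 95% confidence interval ran from 1.78 to 4.89. Of all genes Arntl had the 37th smallest p, and its adjusted p by edgeR's quasi-likelihood test with Benjamini-Hochberg adjustment was 0.345.

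The other genes of the positive arm did not separate the genotypes. Clock, whose protein dimerises with ARNTL, had 26.0 and 65.8 CPM in KO adults and 35.3 and 27.5 CPM in WT adults, a log2 fold change of 0.55 ± 0.76 (edgeR adjusted p = 1). One KO library lay below both WT libraries and the other above them, and without KO replicate 2 the fold change turned to -0.27. Npas2, the substitute for Clock, was low in counts, with 1.38 and 3.65 CPM in KO adults and 0.815 and 3.10 CPM in WT adults. Its 21 and 55 counts in KO and 14 and 45 counts in WT set a wide error (log2 0.37 ± 0.96, edgeR adjusted p = 1), and the direction turned to -0.49 without KO replicate 2 and to -0.30 without WT replicate 1.

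Per2, one of the PER proteins that carry CRY into the repressor complex, showed the largest gap among the repressors. It had 9.62 and 9.74 CPM in KO adults, against 63.6 and 63.4 CPM in WT adults (ENSMUSG00000055866, chromosome 1, 91415982 to 91459324). The replicates agreed closely within each genotype, and the level in KO was lower by 2.71 ± 0.82 on the log2 scale (log2 fold change -2.71, edgeR adjusted p = 1). The model gives a gene 1 spread over all 8 libraries, and the Per2 libraries of WT embryos, given further on, differed much more than the adult ones. Per3, a further PER gene, had 16.7 and 22.7 CPM in KO adults and 52.1 and 72.2 CPM in WT adults (log2 -1.66 ± 0.43, edgeR adjusted p = 0.821; chromosome 4, 151003652 to 151044665). Per1, the PER gene that also answers acute stimuli, had 35.0 and 57.7 CPM in KO adults and 89.0 and 79.1 CPM in WT adults (log2 -0.86 ± 0.41, edgeR adjusted p = 1). All 3 Per genes thus had every KO library below every WT library.

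The Cry genes encode the main blockers of the CLOCK and ARNTL pair. Cry1 had 7.71 and 8.29 CPM in KO adults, against 13.0 and 15.8 CPM in WT adults (log2 -0.85 ± 0.94, edgeR adjusted p = 1). Cry2 had 33.3 and 30.1 CPM in KO adults, against 49.5 and 48.1 CPM in WT adults (log2 -0.62 ± 0.43, edgeR adjusted p = 1). Both genes were close between replicates and lower in each KO library.

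The 2 REV-ERB genes went opposite ways. Nr1d1 had 195 and 94.98 CPM in KO adults, against 49.3 and 34.2 CPM in WT adults (log2 1.80 ± 0.51, edgeR adjusted p = 1; ENSMUSG00000020889, chromosome 11, 98767932 to 98775333). Nr1d2 had 63.1 and 119.6 CPM in KO adults, against 138 and 149 CPM in WT adults (log2 -0.65 ± 0.86, edgeR adjusted p = 1). There were 0.324 and 1.26 counts of Nr1d2 per count of Nr1d1 in the KO libraries, against 2.79 and 4.35 in the WT libraries. In both genotypes the library with the higher Nr1d1 had the lower Nr1d2. The 3′ end of Nr1d1 overlaps that of Thra, a thyroid hormone receptor gene on the opposite strand, over 1075 bases (chromosome 11, 98767932 to 98769006). Whether the counting used strand is not given in the sources used here, so reads there cannot be assigned with certainty. Thra had 109 and 75.7 CPM in KO adults and 63.9 and 58.9 CPM in WT adults (log2 0.59 ± 0.43, edgeR adjusted p = 1), and its part in the Nr1d1 values was not tested. The same limit holds for Arntl and Cry2, whose spans overlap genes on the opposite strand. Arntl overlaps the antisense gene Gm45355 over 2394 bases, and Cry2 overlaps the noncoding gene D930015M05Rik over 23417 bases. The part of these genes in the Arntl and Cry2 values was not tested.

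**Figure D1:**
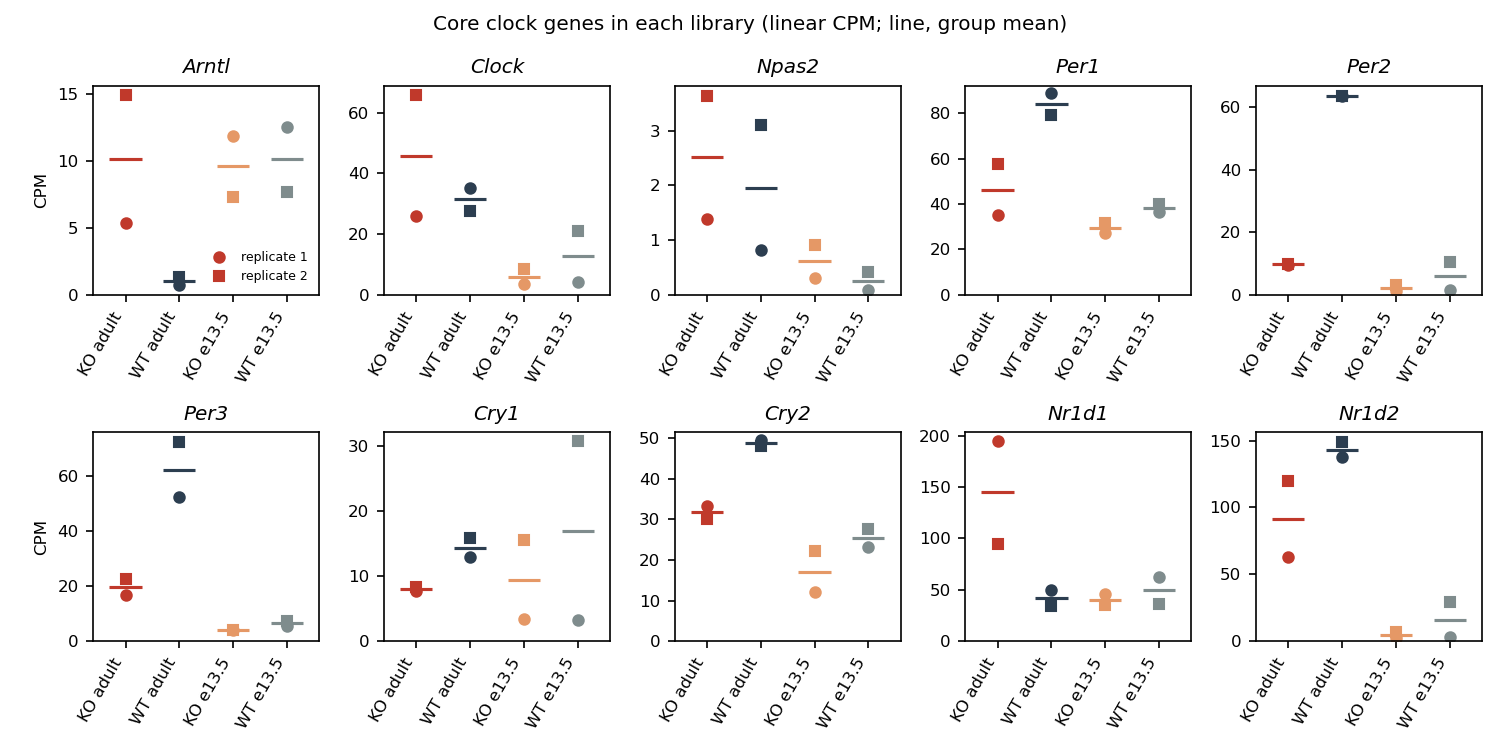
Levels of the 10 clock genes in each of the 8 libraries (vertical axes, linear CPM from 0, each panel with its own scale), with circles for replicate 1, squares for replicate 2 and lines for the mean of 2 libraries. In adults the 2 KO libraries lie above both WT libraries for Arntl and Nr1d1 and below both for Per1, Per2, Per3, Cry1, Cry2 and Nr1d2.

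By count, 2 clock genes lay wholly higher in KO adults and 6 wholly lower, with 2 overlapping. Groups did not overlap for 27.9% of all genes tested, of which 2239 lay wholly higher and 2405 (14.5% of the genes) wholly lower in KO. The 2 clock genes higher in KO are thus a share near the background, and the 6 lower ones a share above it. The median log2 fold change was -0.64 over the clock genes (0.55 over the positive arm and -0.85 over the repressors), beside 0.01 over all genes. By edgeR, 0 of the 10 passed an adjusted p below 0.05, where 0.0481% of all genes did. At an unadjusted p below 0.05 there were 4 (Arntl, Per2, Per3 and Nr1d1), against 2.27% of all genes. With DESeq2's Wald test 2 passed, Arntl (adjusted p = 0.00257) and Per2 (adjusted p = 0.0485), where 0.325% of all genes did, and the same 2 genes passed in edgeR without a filter on low counts, where 0.214% did. The adjusted p of Arntl ran from 0.00126 to 1 over its alternatives and that of Per2 from 0.00431 to 1. In these bulk libraries a lower level in all cells and fewer cells with the transcript cannot be told apart. The hour of collection is not given in the sources used here, so a difference by genotype and a difference by hour cannot be told apart either.

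Other lists also differed in level between the adult libraries. Of 12 immediate early genes, which respond within minutes to stimuli and handling, 0 lay wholly higher and 9 wholly lower in KO, with a median log2 fold change of -0.68, and none was called. Their summed level was 584 and 869 CPM in KO and 1381 and 994 CPM in WT. Of 7 heat shock genes 0 lay wholly higher and 1 wholly lower in KO, and none was called. They summed to 2023 and 3100 CPM in KO and 3099 and 2308 CPM in WT. Among them Hspa1a had 190 CPM in WT replicate 1 and 21.0 CPM in WT replicate 2, against 6.72 and 31.2 CPM in KO. Fibroblast markers summed to 1080 and 631 CPM in KO and 691 and 419 CPM in WT, and all 9 had counts in every library. Of 9 endothelial and 8 macrophage or leukocyte markers, all had a positive log2 fold change in KO adults (medians 0.48 and 0.50), with sums of 2373 and 1243 CPM in KO against 1420 and 996 CPM in WT for the endothelial list and 434 and 252 CPM in KO against 273 and 167 CPM in WT for the macrophage or leukocyte list. Skeletal muscle markers summed to 732 and 597 CPM in KO and 346 and 170 CPM in WT, with 2 of 7 at 0 in each library. Smooth muscle and pericyte markers summed to 968 and 715 CPM in KO and 759 and 522 CPM in WT. Of 6 epicardial markers 4 lay wholly lower in KO, where 14.5% of all genes did. They summed to 36.4 and 13.1 CPM in KO and 35.7 and 46.6 CPM in WT over all 6. None of these markers was called. The 12 cardiomyocyte markers summed to 87377 and 110738 CPM in KO and 112518 and 111181 CPM in WT. Alb, a liver gene, was at 0 in replicate 1 of both genotypes and at 56.2 CPM in KO replicate 2 and 38.8 CPM in WT replicate 2. The part of these lists in the clock gene values was not tested.

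**Figure D2:**
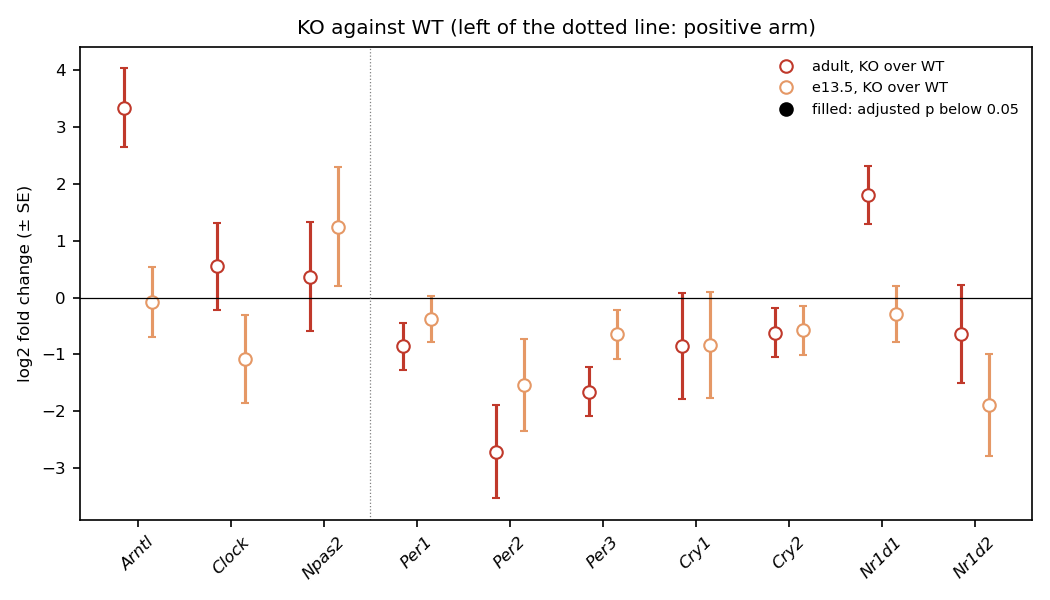
Log2 fold change of KO over WT (vertical axis, points with bars of 1 SE from edgeR) for each clock gene in adults and at e13.5, with the positive arm left of the dotted line. In adults Arntl stands at 3.33 and Nr1d1 at 1.80 while the other repressors lie below 0, and no point is filled because none passed the adjusted p.

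Differences taken within a library depend on the scaling between libraries only through the prior count of 2. The mean log2 CPM of the positive arm minus that of the repressors was -2.30 and -1.07 in the KO adult libraries, against -4.18 and -3.45 in the WT adult libraries. In this difference the KO adults were nearer than the WT adults to the e13.5 libraries, but not in the positive arm mean, given next. The difference was -1.36 and -1.56 in KO embryos and -2.04 and -2.35 in WT embryos. The positive arm mean was highest in KO adults, at 2.57 and 3.95, against 1.57 and 2.32 in WT adults and 1.13 to 2.14 at e13.5. The repressor mean of KO adults, 4.87 and 5.02, lay between WT adults, 5.75 and 5.77, and e13.5, 2.74 to 4.49. The mean gap between KO and WT in positive arm minus repressors was 2.13 in adults and 0.73 at e13.5. It depends on the genes taken: without Npas2, Per1 and Nr1d1 it came to 3.05 in adults and 0.39 at e13.5.

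Arntl and Per2 had the largest rise (log2 3.33) and the largest fall (log2 -2.71) of the 10 clock genes in adult KO against WT. The wide separation of the adult genotypes by their difference follows from that choice. Arntl minus Per2 in log2 CPM was -0.84 and 0.61 in KO adults, against -6.31 and -5.49 in WT adults. In counts, there were 1.80 and 0.653 of Per2 for each of Arntl in KO adults, against 91.1 and 48.5 in WT adults. Arntl against Nr1d1 did not separate the genotypes, with differences of -5.16 and -2.66 in KO adults and -5.94 and -4.60 in WT adults, since both genes were higher in KO. Arntl minus Clock, also taken, was -2.26 and -2.13 in KO adults, against -5.46 and -4.29 in WT adults.

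**Figure D3:**
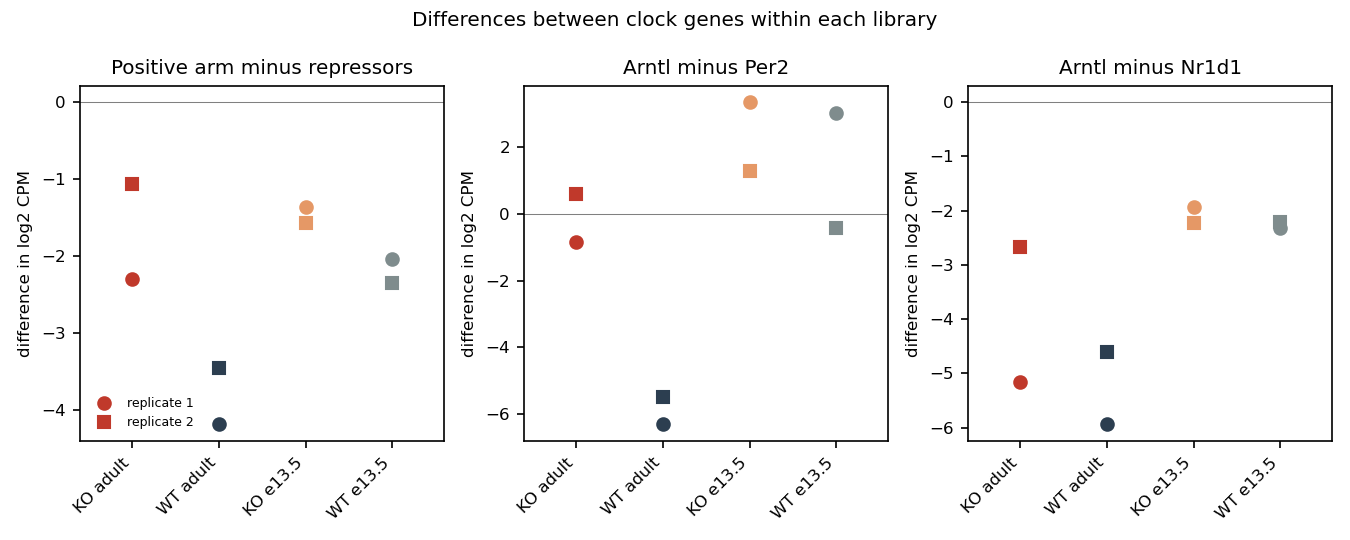
Differences between clock genes within each library (vertical axes, log2 CPM), for the mean of the positive arm minus the mean of the repressors, Arntl minus Per2 and Arntl minus Nr1d1, with circles for replicate 1 and squares for replicate 2. The 2 WT adult libraries lie lowest in the first panel, at -4.18 and -3.45, and in the second, at -6.31 and -5.49.

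At e13.5, 3 of the 10 clock genes separated the genotypes, and none was called. Arntl had 11.9 and 7.32 CPM in KO embryos and 12.5 and 7.71 CPM in WT embryos, a log2 fold change of -0.08 ± 0.61 (95% confidence interval -1.45 to 1.29, edgeR adjusted p = 1). The 2 genotypes overlapped, and the direction was 0.06 with median-of-ratios scaling. Nr1d1 had 45.8 and 34.8 CPM in KO and 62.7 and 36.1 CPM in WT (log2 -0.29 ± 0.50, edgeR adjusted p = 1). Neither gene showed at e13.5 the higher level in KO that was seen in adults.

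Per1, Per3 and Cry2 were the clock genes whose libraries did not overlap at e13.5, each lower in KO. Per1 had 27.2 and 31.7 CPM in KO and 36.4 and 40.2 CPM in WT (log2 -0.38 ± 0.41). Per3 had 4.19 and 4.12 CPM in KO and 5.53 and 7.44 CPM in WT (log2 -0.64 ± 0.43). Cry2 had 12.1 and 22.2 CPM in KO and 23.3 and 27.7 CPM in WT (log2 -0.57 ± 0.43, edgeR adjusted p = 1 for each of the 3). These 3 genes were also lower in KO adults, without a call at either age. In all, 0 of 10 clock genes lay wholly higher and 3 wholly lower in KO embryos, where 6.77% and 8.65% of all genes did. By edgeR 0 passed the adjusted p, where 0.0722% of all genes did, and 0 had an unadjusted p below 0.05, where 2.39% did. DESeq2 called 0 as well. The median was -0.61 over the clock genes and -0.07 over all genes.

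The remaining clock genes at e13.5 differed between libraries 1 and 2 of a genotype. Cry1 had 3.38 and 15.6 CPM in KO libraries 1 and 2 and 3.18 and 30.7 CPM in WT libraries 1 and 2 (log2 -0.84 ± 0.93). Nr1d2 had 2.19 and 6.45 CPM in KO and 2.996 and 29.2 CPM in WT (log2 -1.89 ± 0.90). Per2 had 1.06 and 2.93 CPM in KO and 1.43 and 10.3 CPM in WT (log2 -1.54 ± 0.80). For these 3 genes library 1 of KO and of WT lay close together, and library 2 of WT was the highest. Clock had 3.44 and 8.43 CPM in KO and 4.10 and 21.1 CPM in WT (log2 -1.08 ± 0.77), and Npas2 had 0.313 and 0.910 CPM in KO and 0.0922 and 0.413 CPM in WT (log2 1.24 ± 1.05, edgeR adjusted p = 1 for all 5). The Npas2 values rest on 5 and 23 counts in KO and 2 and 12 counts in WT, near the floor of 3. Without WT replicate 2 the fold changes turned to 1.58 for Cry1, 0.55 for Nr1d2, 0.51 for Per2 and 0.55 for Clock. In both genotypes 7 of the 10 clock genes were higher in library 2 and 2, Arntl and Nr1d1, were lower, where 40.5% and 35.5% of all genes were. The same libraries differ in fibroblast and haemoglobin RNA, as given above, and the part of this in the clock gene values was not tested.

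Whether the genotype difference itself differs between the ages was tested as an interaction. For Arntl it was 3.41 ± 0.91 on the log2 scale, the adult difference minus that at e13.5, with an unadjusted p of 0.00401 in edgeR's quasi-likelihood test across all genes and an adjusted p of 1. Nr1d1 had 2.09 ± 0.71 (unadjusted p = 0.0148, edgeR adjusted p = 1). These are the 2 clock genes with an unadjusted p below 0.05, where 1.59% of all genes had one. No clock gene passed the adjusted p in edgeR or DESeq2, where 0% of all genes did in edgeR. The age dependence of the genotype difference is thus not shown for any clock gene.

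With age, 4 of the 10 clock genes rose in KO and 3 in WT, Per3 and Nr1d2 in both, and Arntl fell in WT. The comparison of adult with e13.5 hearts asks how these genes change as cardiomyocytes mature, in each genotype. In KO, those that rose were Clock, Per3, Nr1d1 and Nr1d2, and 0 fell, where 20.5% of all genes rose and 20.9% fell. In WT, Per2, Per3 and Nr1d2 rose and 1 fell, Arntl, where 17.8% rose and 21.1% fell. The median log2 fold change was 1.92 in KO and 1.22 in WT, beside -0.15 and -0.26 over all genes. By overlap, 8 lay wholly higher and 0 wholly lower in KO adults, where 34.8% and 37.9% of all genes did, and 7 lay wholly higher and 1 wholly lower in WT adults, where 34% and 41.8% did.

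Per3 and Nr1d2 rose in both genotypes. Per3 was 4.74-fold higher in adults than at e13.5 in KO (log2 2.25 ± 0.45, edgeR adjusted p = 0.0039) and 9.57-fold higher in WT (log2 3.26 ± 0.46, edgeR adjusted p = 8.27e-04). It lies within Camta1, a transcription factor gene on the same strand, and Camta1 rose too, by 1.71 ± 0.40 in KO (edgeR adjusted p = 0.00902) and 1.89 ± 0.41 in WT (edgeR adjusted p = 0.00619), with its part in the Per3 values not tested. Nr1d2 was 20.96-fold higher in KO (log2 4.39 ± 0.995, edgeR adjusted p = 0.00737) and 8.87-fold higher in WT (log2 3.15 ± 0.93, edgeR adjusted p = 0.0248). The call for Nr1d2 in WT ended without WT adult replicate 1 (adjusted p = 0.0597) and without WT adult replicate 2 (adjusted p = 0.0639), and without WT e13.5 replicate 2 the fold change was 5.60.

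Arntl and Nr1d1 each changed with age in 1 genotype. Arntl fell in WT, by 3.33 ± 0.69 on the log2 scale, 10.1-fold (edgeR adjusted p = 0.00527, and 0.0627 without WT adult replicate 1), whereas in KO its fold change was 0.08 ± 0.61 (edgeR adjusted p = 0.926), with a direction that turned under other scalings. Nr1d1 rose in KO, by 1.85 ± 0.51 (edgeR adjusted p = 0.0175), and had -0.24 ± 0.50 in WT (edgeR adjusted p = 0.722). The call for Nr1d1 ended without KO adult replicate 1 (adjusted p = 0.133) or KO e13.5 replicate 2 (adjusted p = 0.0695). Thra rose with it in KO, by 2.17 ± 0.45 (edgeR adjusted p = 0.00483). The test of the difference between genotypes is the interaction above, which neither Arntl nor Nr1d1 passed.

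Clock rose in KO, by 2.94 ± 0.82 (edgeR adjusted p = 0.018), and had 1.31 ± 0.77 in WT (edgeR adjusted p = 0.199). In WT it was called with a replicate block (adjusted p = 0.0386), with the block at e13.5 alone (adjusted p = 0.00578) and without WT e13.5 replicate 2 (log2 2.95, adjusted p = 0.0121). The KO call ended without KO adult replicate 2 (adjusted p = 0.126) or KO e13.5 replicate 1 (adjusted p = 0.0792). Per2 rose in WT by 3.43 ± 0.84 (edgeR adjusted p = 0.0112, and 5.49 without WT e13.5 replicate 2), and in KO it had 2.26 ± 0.82 and missed the threshold in edgeR (adjusted p = 0.0504), though 9 of 17 alternatives called it, with an adjusted p of 0.00031 to 0.18 over all 17. The interactions of Clock and Per2 were 1.63 ± 1.08 and -1.17 ± 1.11 (edgeR adjusted p = 1 for both). Per1, Cry2 and Npas2 lay wholly higher in adults of both genotypes and were not called, with 0.65 ± 0.41, 0.89 ± 0.43 and 1.999 ± 1.01 in KO and 1.14 ± 0.41, 0.94 ± 0.43 and 2.88 ± 1.06 in WT. Some alternatives in edgeR or DESeq2 called these genes: Npas2 under 8 of 16 in WT (DESeq2 adjusted p = 0.0219) and under both replicate blocks in KO, Per1 under DESeq2 (adjusted p = 0.0385) and both blocks in WT, and Cry2 with the block at e13.5 alone in both genotypes. Cry1 overlapped between ages in both genotypes, at -0.25 ± 0.93 in KO and -0.24 ± 0.92 in WT. The block at e13.5 alone sets adults against the fitted level of e13.5 replicate 1, so its calls are not of the same comparison.

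**Figure D4:**
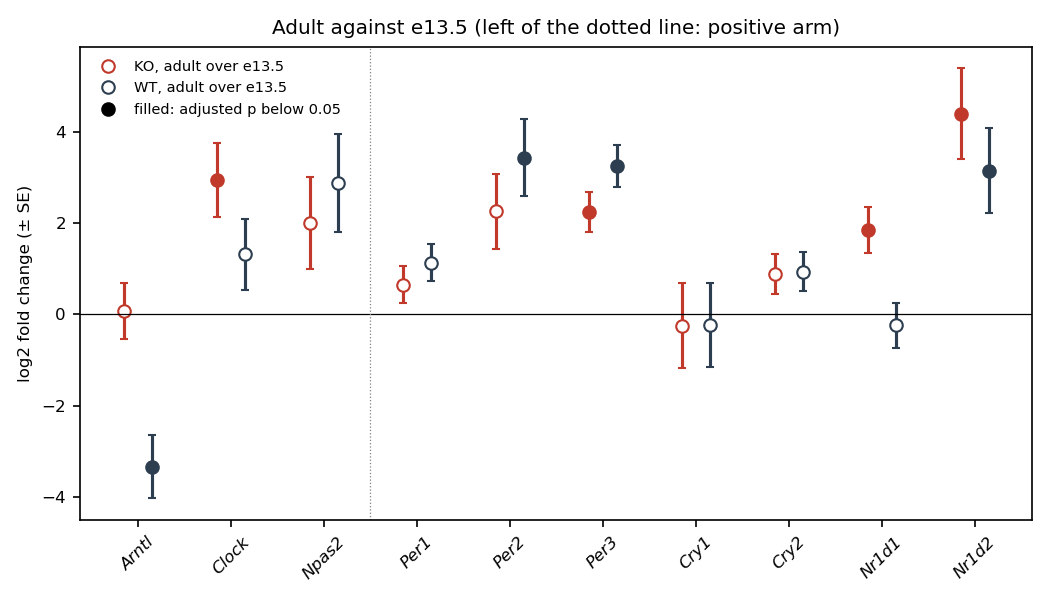
Log2 fold change of adult over e13.5 (vertical axis, points with bars of 1 SE from edgeR) for each clock gene in KO and WT, filled where the adjusted p is below 0.05. Arntl lies at 0.08 in KO and at -3.33 in WT, while Per3 and Nr1d2 lie above 2 and are filled in both genotypes.

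Summed markers differed between the ages as well. The 12 cardiomyocyte markers summed to 87377 and 110738 CPM in KO adults against 38139 and 15641 CPM in KO embryos, and to 112518 and 111181 CPM in WT adults against 32167 and 26346 CPM in WT embryos. Mitochondrially encoded RNA made up 22.6% to 28.8% of counts in adults and 3.21% to 4.36% at e13.5. Changes within cardiomyocytes and changes in the share of their RNA cannot be told apart between the ages.

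Levels of different genes were compared as CPM per kilobase of the transcript with the longest coding sequence. In KO adults Nr1d1 came first with 53.3 ± 26.0 CPM per kilobase (SD, n = 2), followed by Nr1d2 with 19.6 ± 8.56 and Per1 with 9.92 ± 3.43. In WT adults Nr1d2 came first with 30.7 ± 1.69, followed by Per1 with 18.0 ± 1.49 and Nr1d1 with 15.3 ± 3.94. Neighbours often differed by less than their spread: in WT adults Per1 and Nr1d1 were within 1 SD of each other, as were Per2 (10.9 ± 0.0240) and Per3 (10.4 ± 2.37). Arntl stood last in WT adults with 0.407 ± 0.175, next to Npas2 with 0.462 ± 0.381, whose libraries overlapped it. In KO adults Arntl was 6th with 4.11 ± 2.75, among Clock (4.71 ± 2.88) and Per3 (3.28 ± 0.699), and the 3 overlapped between libraries. With the union of all exons as length it was 9th there, with 1.35.

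At e13.5 Nr1d1 and Per1 led in both genotypes. Nr1d1 had 14.8 ± 2.85 CPM per kilobase in KO and 18.1 ± 6.92 in WT, and Per1 had 6.31 ± 0.688 in KO and 8.19 ± 0.573 in WT. Npas2 came last in both, with 0.144 ± 0.0997 in KO and 0.0597 ± 0.0536 in WT. Arntl was 4th in KO with 3.90 ± 1.31 and 5th in WT with 4.11 ± 1.38, above Clock, which had 0.609 ± 0.362 in KO and 1.29 ± 1.23 in WT. The mean of Arntl per kilobase thus exceeded that of Clock in both groups of embryos and lay below it in both groups of adults, where the KO libraries overlapped.

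Genes outside the core loop were read from 3 further lists. The first held 11 output and accessory loop genes, such as the PAR bZIP factors Dbp, Tef and Hlf that act through D-boxes, and Ciart, a further repressor of the CLOCK and ARNTL pair. Tef had 139 and 140 CPM in KO adults, against 286 and 316 CPM in WT adults (log2 -1.11 ± 0.57, edgeR adjusted p = 1). Hlf had 12.3 and 11.9 CPM in KO adults, against 38.0 and 39.4 CPM in WT adults (log2 -1.68 ± 0.48, edgeR adjusted p = 1). Dbp, the classical direct target of the pair, did not separate the genotypes: it had 134 and 40.7 CPM in KO adults and 104 and 113 CPM in WT adults (log2 -0.30 ± 0.59), and turned to 0.31 without KO replicate 2. Bhlhe40, a repressor of the same E-boxes, had 73.7 and 38.7 CPM in KO adults and 58.4 and 34.4 CPM in WT adults (log2 0.27 ± 0.53, edgeR adjusted p = 1 for both). In adults 0 of the 11 lay wholly higher and 5 wholly lower in KO, beside 2239 of all 16623 genes (wholly higher) and 14.5% (wholly lower), with a median of -0.30, and 0 were called. Hlf and Dbp are named here after their adult values were seen.

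The second list held 12 genes that the clock is known to drive in heart or other tissues, and Pdk4 and Dgat2 had the highest mean CPM over the adult libraries of both genotypes. Pdk4, a kinase that turns the heart from glucose to fat, had 639 and 902 CPM in KO adults, against 201 and 232 CPM in WT adults (log2 1.83 ± 0.66, edgeR adjusted p = 1). Dgat2, an enzyme of triglyceride synthesis, had 224 and 196 CPM in KO adults, against 627 and 756 CPM in WT adults (log2 -1.72 ± 0.47, edgeR adjusted p = 0.9). Of the 12, 2 lay wholly higher in KO adults (Pdk4 and the uncoupling protein gene Ucp3) and 7 wholly lower, with a median of -0.59, and 0 were called. Against the same background, 2239 of 16623 genes and 14.5%, the count higher is near it and the count lower above it. Chosen after its values were seen, Fkbp5, a chaperone of steroid receptors and a glucocorticoid target, had 11.3 and 13.4 CPM in KO adults and 57.9 and 47.9 CPM in WT adults. Its log2 fold change was -2.10 ± 0.43 (edgeR adjusted p = 0.322, and 0.00834 by DESeq2). Klf15, a regulator of cardiac metabolism chosen in the same way, had 36.6 and 49.0 CPM in KO adults and 76.9 and 102 CPM in WT adults (log2 -1.06 ± 0.50, edgeR adjusted p = 1).

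The third list held 16 kinases, ligases and cofactors that act on clock proteins. Here 1 gene lay wholly higher and 5 wholly lower in KO adults, beside 2239 of 16623 genes higher and 14.5% lower, and 0 were called. Nono, a binding partner of PER proteins, had 84.9 and 78.8 CPM in KO adults and 85.5 and 83.2 CPM in WT adults (log2 -0.04 ± 0.38). Csnk2a1, a casein kinase subunit that phosphorylates clock proteins, had 117 and 160 CPM in KO adults and 140 and 131 CPM in WT adults (log2 0.02 ± 0.40, edgeR adjusted p = 1 for both). At e13.5 none of the 39 genes on the 3 lists was called between KO and WT. There Tef, Bhlhe40, Nono and Csnk2a1 had -0.36 ± 0.57, -0.05 ± 0.53, 0.14 ± 0.38 and -0.24 ± 0.40, and Pdk4 and Dgat2 had -0.42 ± 0.64 and -0.55 ± 0.46 (edgeR adjusted p = 1 for each).

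**Figure D5:**
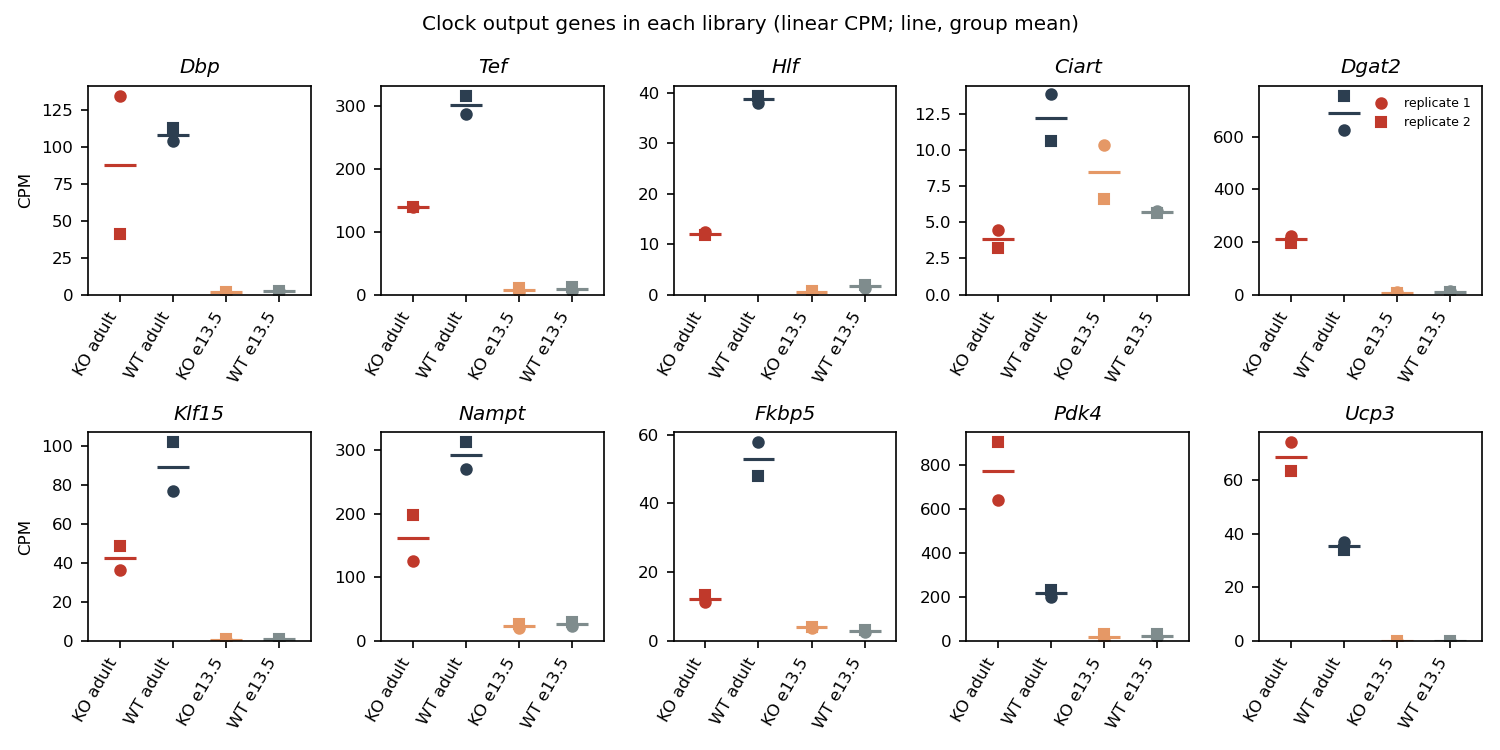
Levels of 10 genes from the output and heart target lists in each library (vertical axes, linear CPM from 0, each panel with its own scale), some of them chosen after their values were seen, with circles for replicate 1, squares for replicate 2 and lines for the mean of 2 libraries. In adults Tef, Hlf, Ciart, Dgat2, Klf15, Nampt and Fkbp5 lie lower and Pdk4 and Ucp3 higher in both KO libraries, and none of these passed the adjusted p in edgeR.

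With age, 5 of the 11 output genes rose and 0 fell in KO, beside 20.5% and 20.9% of all genes, and in WT 5 rose and 0 fell, beside 17.8% and 21.1%. In each genotype 6 were not called. Dbp had 134 and 40.7 CPM in KO adults against 0.875 and 2.02 CPM in KO embryos (log2 5.89 ± 0.73, edgeR adjusted p = 4.45e-04), and 104 and 113 CPM in WT adults against 2.58 and 2.10 CPM in WT embryos (log2 5.53 ± 0.72, edgeR adjusted p = 5.62e-04). Tef rose by 4.31 ± 0.64 in KO and 5.06 ± 0.67 in WT, and Hlf by 4.45 ± 0.57 in KO and 4.57 ± 0.55 in WT. In the heart target list 8 of 12 rose and 1 fell in KO, and 8 rose and 0 fell in WT. Kcnip2, a potassium channel subunit gene under clock control in mouse heart, had 222 and 146 CPM in KO adults against 0.250 and 0.356 CPM in KO embryos (log2 9.18 ± 0.61, edgeR adjusted p = 1.38e-04), and 184 and 180 CPM in WT adults against 0.415 and 0.551 CPM in WT embryos (log2 8.53 ± 0.58, edgeR adjusted p = 1.69e-04). Klf15 rose by 5.75 ± 0.63 in KO and 6.62 ± 0.64 in WT, and Dgat2 by 4.76 ± 0.53 and 5.93 ± 0.56. Ucp3 rose as well, with 74.1 and 63.6 CPM in KO adults against 2 counts and 0 counts in the KO embryo libraries, and 37.1 and 34.1 CPM in WT adults against 2 counts in each WT embryo library.

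In the list of kinases, ligases and cofactors 5 of 16 rose and 1 fell with age in KO, beside 20.5% and 20.9% of all genes, and 5 rose and 1 fell in WT, beside 17.8% and 21.1%. Ncor1, the corepressor used by REV-ERB, rose by 2.19 ± 0.45 in KO (edgeR adjusted p = 0.00489) and 2.52 ± 0.46 in WT (edgeR adjusted p = 0.00283). Nono fell by 1.85 ± 0.40 in KO (edgeR adjusted p = 0.00559) and by 1.67 ± 0.39 in WT (edgeR adjusted p = 0.00934), though the KO call ended without KO adult replicate 2 (adjusted p = 0.0522) and the WT call without WT adult replicate 1 (adjusted p = 0.113) or 2 (adjusted p = 0.127). Sirt1, a deacetylase that acts on clock proteins, rose by 1.94 ± 0.58 in KO (edgeR adjusted p = 0.0238), a call that ended without KO adult replicate 2 (adjusted p = 0.145) or KO e13.5 replicate 1 (adjusted p = 0.1). Cipc, an inhibitor of CLOCK, rose by 2.53 ± 0.70 in WT (edgeR adjusted p = 0.0187, and 0.0867 without WT adult replicate 2).

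To see which genes varied like Arntl, log2 CPM was centred within each age and Pearson's r with Arntl was taken over the 8 libraries. It covered 10758 genes, those with a mean of at least 5 CPM and the clock genes at any level, as a description with no test. The 8 points come from 4 groups of 2, and r can be set by few libraries. Spsb4 had the highest r (0.986), followed by Rxfp1 (0.921), Pagr1a (0.918), Prrc1 (0.911) and Ankrd23 (0.910). Ankrd23, which encodes a sarcomere-associated ankyrin repeat protein, had 626 and 683 CPM in KO adults and 215 and 250 CPM in WT adults. Rxfp1 had 0.264 and 0.729 CPM in KO adults and 0.0582 and 0 CPM in WT adults, near the floor of 3 counts, and nothing is read from its r. The lowest r belonged to Ckap2l (-0.969), Slc38a5 (-0.968), Esco2 (-0.955), Apobec3 (-0.951) and Angptl7 (-0.946). Slc38a5 and Esco2 were likewise under 1 CPM in every adult library, and nothing is read from these values of r either. Angptl7 had 0.329 and 0.199 CPM in KO adults, near the floor, and Pagr1a was low in WT adults, at 0.349 and 1.03 CPM. The r of these 2 genes rests in part on such low values. Among the clock genes Nr1d1 was nearest to Arntl, with r = 0.698 and rank 107, followed by Npas2 with 0.267 and Clock with 0.116. The other repressors had negative values, with Per2 at -0.787, Per3 at -0.750, Cry2 at -0.642, Per1 at -0.637, Cry1 at -0.428 and Nr1d2 at -0.300.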

How the data were processed

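The values are estimated counts (expected counts) per gene from RSEM on mm10, made by the authors before they deposited them, per the submitters' processing notes. Per the labels' protocols, 200 ng of total RNA per library was amplified with Smart-seq2. The title of the table calls its content normalised, but its whole numbers sum to a different total in each library and were taken as counts. Aligner, annotation, RSEM version and use of strand are not given in the sources used.

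The table was analysed in R 4.3.3 with edgeR 4.0.16, with limma 3.58.1 loaded beside it, and DESeq2 1.42.0 as an alternative. Figures used Python 3.11.15 with matplotlib 3.10.9. Symbols for 51633 of 51826 identifiers and all gene positions came from GENCODE vM21 (GRCm38). Genes were kept by filterByExpr (16623) and scaled by TMM (factors 0.770 to 1.44). They were fitted with 4 group means over all 8 libraries by a quasi-likelihood model with 4 residual degrees of freedom. The model was also run on simulated counts, drawn independently with the spread estimated here. Such a run cannot show that this spread holds, and it left out the likeness of same-numbered libraries. Tests were two-sided with Benjamini-Hochberg adjustment over all genes tested and a threshold of 0.05. Log2 CPM used a prior count of 2. Groups called not overlapping had every library of one above every library of the other. BLAST 2.17.0 found 0 of 10 clock genes with another gene at 95% identity or more over at least 50% of the transcript.

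The clock genes and the other lists were chosen with earlier results of these data known. Named were all clock genes, from each other clock list up to 4 called members per comparison or else the 2 of highest level, the genes most and least like Arntl, and genes overlapping a clock gene. Some genes that this rule names are not reported here. Lists of cell types and sample state are given by counts and summed levels. Same-numbered libraries deviated from their group means with r = 0.31 in adults and 0.55 at e13.5, over genes and with 2 numbers only, so they were not treated as pairs. The alternatives were no filter, at least 5 CPM in 2 libraries, other scalings, robust fits, DESeq2, fewer libraries and the replicate number as a block. For positive arm minus repressors a prior count of 0.5 was also taken. The block at e13.5 alone was added after the data were seen. It gives the e13.5 libraries numbered 2 a term of their own. The e13.5 levels that it sets against adults are thus the fitted levels of replicate 1. All 8 libraries were used.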

Additional observations from a re-analysis of the deposited data

Results flagged for a closer look

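Ciart lay lower in both KO libraries than in both WT libraries in adults and higher in both at e13.5. It had 4.48 and 3.25 CPM in KO adults and 13.9 and 10.6 CPM in WT adults, and 10.4 and 6.65 CPM in KO embryos and 5.76 and 5.65 CPM in WT embryos. The interaction of genotype and age was -2.24 ± 0.68 on the log2 scale, and it did not pass (edgeR adjusted p = 1).

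Fkbp5 showed the same opposite separation of the libraries at the 2 ages. It had 11.3 and 13.4 CPM in KO adults and 57.9 and 47.9 CPM in WT adults, and 3.75 and 4.19 CPM in KO embryos and 2.53 and 3.27 CPM in WT embryos. Its interaction was -2.55 ± 0.60, which did not pass either (edgeR adjusted p = 1). These are 2 of the 49 clock and clock-related genes looked at, and each value is a description. Of all genes, 14.5% lay wholly lower in KO adults and 6.77% wholly higher in KO embryos. The share of all genes with opposite separation at the 2 ages was not counted. The 2 of 49 are thus not read as a result about clock genes.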

How the results depend on the processing

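In adult KO against WT the number of clock genes called was 0 in the main analysis, 2 without a filter on low counts, 2 with DESeq2 and 1 with a replicate block at e13.5 alone (Per2, adjusted p = 0.0472), and 0 under the other settings, each library left out included. For adult against e13.5, it was 4 in KO, and 6 with a replicate block, 8 with the block at e13.5 alone and 3 to 5 with a library left out. In WT it was 4, and 7 with a replicate block, 9 with the block at e13.5 alone and 2 to 6 with a library left out, the lowest without WT adult replicate 1. At e13.5 and for the interaction it was 0 under every setting, the replicate block included. The gap between KO and WT in positive arm minus repressors was 3.05 in adults and 0.387 at e13.5 without Npas2, Per1 and Nr1d1. The replicate numbers are not known to pair libraries. The block at e13.5 alone sets adults against the fitted level of e13.5 replicate 1, so its age counts are of another comparison. In adult KO against WT it called 0.132% of all genes. With age, the main analysis called 41.4% of all genes in KO and 38.9% in WT. The share called with age under other settings is not given here. Counts under those are thus not read as a result about clock genes.

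Some directions turned, all of values that no setting called in that direction except Cry1 with the block at e13.5 alone. In KO against WT at e13.5, Arntl had 0.062 with median-of-ratios scaling and 0.062 with DESeq2, and Bhlhe40 had 0.011 without a filter, 0.065 with median-of-ratios scaling, 0.044 with upper quartile scaling and 0.065 with DESeq2. For adult against e13.5 in KO, Arntl had -0.0056 with the filter at 5 CPM, -0.054 with median-of-ratios scaling, -0.11 with upper quartile scaling, -0.055 with DESeq2, -0.23 with the block at e13.5 alone and -0.0023 with only the libraries of the comparison. Cry1 there had 0.21 with a replicate block and 1.52 with the block at e13.5 alone, and in WT 0.36 and 1.88. The interaction of Cry2 was 0.0084 with the block at e13.5 alone. The age comparisons with the block at e13.5 alone set adults against the fitted level of e13.5 replicate 1, so they differ from the main comparison by design. The cause of the other shifts was not tested.

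With each library left out in turn, adult KO against WT ranged from -0.27 to 1.06 for Clock, -0.49 to 1.61 for Npas2, -0.27 to 0.71 for Bhlhe40, -0.099 to 0.0070 for Nono, -0.22 to 0.23 for Csnk2a1 and -1.41 to 0.31 for Dbp. At e13.5 it ranged from -0.48 to 0.47 for Arntl, -1.86 to 0.55 for Clock, -2.45 to 0.51 for Per2, -2.31 to 1.58 for Cry1, -0.60 to 0.31 for Nr1d1, -2.86 to 0.55 for Nr1d2, -1.22 to 0.44 for Tef, -0.67 to 0.39 for Bhlhe40 and -1.83 to 0.27 for Pdk4. With age, the ranges were -0.83 to 0.64 for Arntl and -0.95 to 1.24 for Cry1 in KO, and -0.95 to 2.20 for Cry1 and -0.57 to 0.35 for Nr1d1 in WT. For the interaction they were -2.32 to 0.36 for Npas2, -2.44 to 1.46 for Cry1, -0.41 to 0.44 for Cry2 and -1.20 to 2.21 for Nr1d2. Where a library left out leaves a group with 1, that library is taken to vary like the other groups. With a prior count of 0.5 in place of 2, the gap between KO and WT in positive arm minus repressors was 2.18 in adults. At e13.5 it was 0.83. Npas2, with 2 to 55 counts per library, is limited by depth.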
